A study of Mus musculus with 12 samples.

Results

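The CC chemokine ligands Ccl2, Ccl3, Ccl4, Ccl5, Ccl6, Ccl7, Ccl8, Ccl9, Ccl11 and Ccl12 were followed across the 12 RNA-seq libraries of a study of reprogramming in MEFs, the fibroblasts of connective tissue cultured from mouse embryos. The genes were taken as the rows of the count table whose Ensembl identifiers carry these 10 symbols, out of 55573 rows, and all 10 passed the filter on low counts that left 19174 genes for testing. The set was chosen by a measured value, the higher Ccl12 in cells given vitamin B12. For that reason the members' differences with B12 are given below as a description. Counts of members past the threshold with B12 restate that choice and are no test of it, and p-values of members are given only for other comparisons.

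The MEFs were of strain C57BL/6 and came from E13.5 embryos, and all libraries carried the same i4F construct, in which doxycycline switches on Oct4, Sox2, Klf4 and Myc (OSKM). Each of 3 clones, numbered 1 to 3 and each from 1 embryo, gave 1 library to each of 4 groups. MEF cells received neither doxycycline nor B12, and MEF+B12 cells received 2 µM vitamin B12. OSKM cells received doxycycline at 1 µg/ml, and OSKM+B12 cells received both agents. All were harvested at 72 h in a medium for induced pluripotent stem cells. Effects of doxycycline itself and of the factors cannot be told apart, since uninduced cells received no drug. A population of cells was sequenced from each well, so fewer cells of a type and less RNA per cell cannot be told apart either.

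Chemokines are small secreted proteins that draw leukocytes towards their source through receptors with a coupled G protein. The CC ligands are named for the adjacent cysteines near their amino terminus. CCL2, CCL7 and CCL12 attract monocytes through CCR2, whereas CCL11 (eotaxin) acts on eosinophils through CCR3. CCL3 and CCL5 signal through CCR1, as do the rodent ligands CCL6 and CCL9, and CCL4 is a close relative of CCL3. Fibroblasts and macrophages are both known sources of these proteins.

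The 10 genes lie in 2 clusters on chromosome 11 (GRCm38, GENCODE M21 annotation). Ccl2 (chr11:82035571-82037453), Ccl7 (chr11:82045712-82047525), Ccl11 (chr11:82057823-82062955), Ccl12 (chr11:82101845-82103400) and Ccl8 (chr11:82115185-82116799) follow each other on the plus strand. The other cluster holds Ccl5 (chr11:83525778-83530518), Ccl9 (chr11:83572919-83578636), Ccl6 (chr11:83587882-83593087) and Ccl3 (chr11:83647844-83649355) on the minus strand, and Ccl4 (chr11:83662584-83664683) on the plus strand. All are protein-coding. Their coding sequences, of 273 to 444 bases, were most alike for Ccl3 and Ccl4, with 69.8% identical positions in a global alignment, followed by Ccl7 and Ccl11 with 67.9% and Ccl9 and Ccl6 with 66.7%. Ccl12 was closest to its neighbour Ccl8, at 66.4%. At most 3.75% of the 31-base words of any member, those of Ccl9, also occurred in transcripts of another gene.

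Promoter sequences from RefSeq (GRCm38.p6), covering 250 bases before and 50 bases after a gene's start, matched 5 of the 10 members. The 250 bases before the start are shown, 5′ to 3′ along the strand of the gene, for Ccl12, which had the largest difference with B12, for Ccl9, the member most like it across libraries, and for Ccl8 and Ccl6, the members that rose with induction. Capitals mark the motif letters found.
Ccl12, chr11:82101595-82101844, plus strand: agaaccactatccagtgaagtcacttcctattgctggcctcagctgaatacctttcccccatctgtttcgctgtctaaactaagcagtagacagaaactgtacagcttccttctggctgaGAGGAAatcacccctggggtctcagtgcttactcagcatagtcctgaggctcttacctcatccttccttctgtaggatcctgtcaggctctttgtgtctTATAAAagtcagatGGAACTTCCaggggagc
Ccl9, chr11:83578637-83578886, minus strand: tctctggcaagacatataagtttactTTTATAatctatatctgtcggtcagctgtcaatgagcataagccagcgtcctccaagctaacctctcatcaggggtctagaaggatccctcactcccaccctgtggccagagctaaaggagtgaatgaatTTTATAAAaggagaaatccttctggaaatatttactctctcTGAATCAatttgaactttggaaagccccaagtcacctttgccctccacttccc
Ccl8, chr11:82114935-82115184, plus strand: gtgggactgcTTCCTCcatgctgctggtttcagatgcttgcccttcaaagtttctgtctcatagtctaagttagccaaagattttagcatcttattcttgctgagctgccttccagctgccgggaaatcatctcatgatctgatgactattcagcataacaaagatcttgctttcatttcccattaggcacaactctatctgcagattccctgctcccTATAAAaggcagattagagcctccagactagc
Ccl6, chr11:83593088-83593337, minus strand: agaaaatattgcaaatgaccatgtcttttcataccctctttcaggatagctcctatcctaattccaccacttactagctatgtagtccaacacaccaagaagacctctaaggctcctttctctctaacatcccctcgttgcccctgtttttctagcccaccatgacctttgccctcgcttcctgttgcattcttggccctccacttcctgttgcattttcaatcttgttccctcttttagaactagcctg

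Motifs were searched on both strands of the 300-base windows. TATAAA, the letters of the TATA box, was found in 3 of the 5 members against 13.6% of all 32851 promoters. In Ccl12 it began 31 bases before the start and in Ccl8 32 bases before it, whereas in Ccl9 it was found farther away, at 92 bases, where it overlapped a match on the other strand, and again on that strand near the far end of the window. GGANNTTCC, a kappa B like sequence, was present in Ccl12, from base 17 to base 9 before the start, and in 4.26% of all promoters. TGANTCA, an AP-1 sequence, was present in Ccl9 and in 7.81% of all promoters. GAGGAA, the letters searched for ETS sites of the kind bound by PU.1, was found in Ccl12, Ccl8 and Ccl3 and in 28.3% of all promoters. Shorter or other forms of ETS sites were not searched. TTCNNNGAA (STAT) and TTGCNNAA (C/EBP like), held by 8.3% and 10.8% of all promoters, were found in 0 of the 5 windows. The Ccl6 window held 0 of these motifs. Matches of letters describe the sequence and do not show that a factor binds there.

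The libraries held 56971244 to 79236795 counted read pairs, and the smallest count of any member, 54 pairs of Ccl5 in OSKM+B12 clone 2, has an exact 95% Poisson interval of 40.6 to 70.5. Such intervals cover counting error only. In the induced groups Pou5f1 (Oct4) rose, with a log2 difference of 5.65 ± 0.21 (SE, edgeR adjusted p = 5.95e-07) without B12. Induction was uneven between clones. Without B12, Sox2 was at 23.6, 25.5 and 6.17 times its uninduced level in clones 1, 2 and 3. Myc was at 2.38, 2.68 and 1.08 times, so clone 3 had the smallest rise of both genes. Klf4 was lower, at 0.875, 0.855 and 0.957 times its uninduced level. The 11 collagen and stromal markers of fibroblasts together took 89462 to 142574 CPM (read pairs of a gene per 1e6 pairs counted). Macrophage markers were also present, with a sum over 15 genes of 1263 to 3214 CPM and counts in every library for 14 of them. The 4 monocyte markers summed to 77.6 to 148 CPM. Of these, 2 had counts in every library and 1, Chil3, was at 0 counts in all libraries. In contrast, the 7 neutrophil markers summed to at most 0.138 CPM. The 9 lymphoid markers summed to at most 0.826 CPM and the 7 mast cell markers to at most 0.398 CPM. Of these, 3 lymphoid genes, among them the T cell genes Cd3e and Cd8a, were at 0 counts in all libraries. So were 2 mast cell genes, Fcer1a and Tpsb2. In each list 1 gene had counts in every library, Cd4 and Kit.

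**Figure D1:**
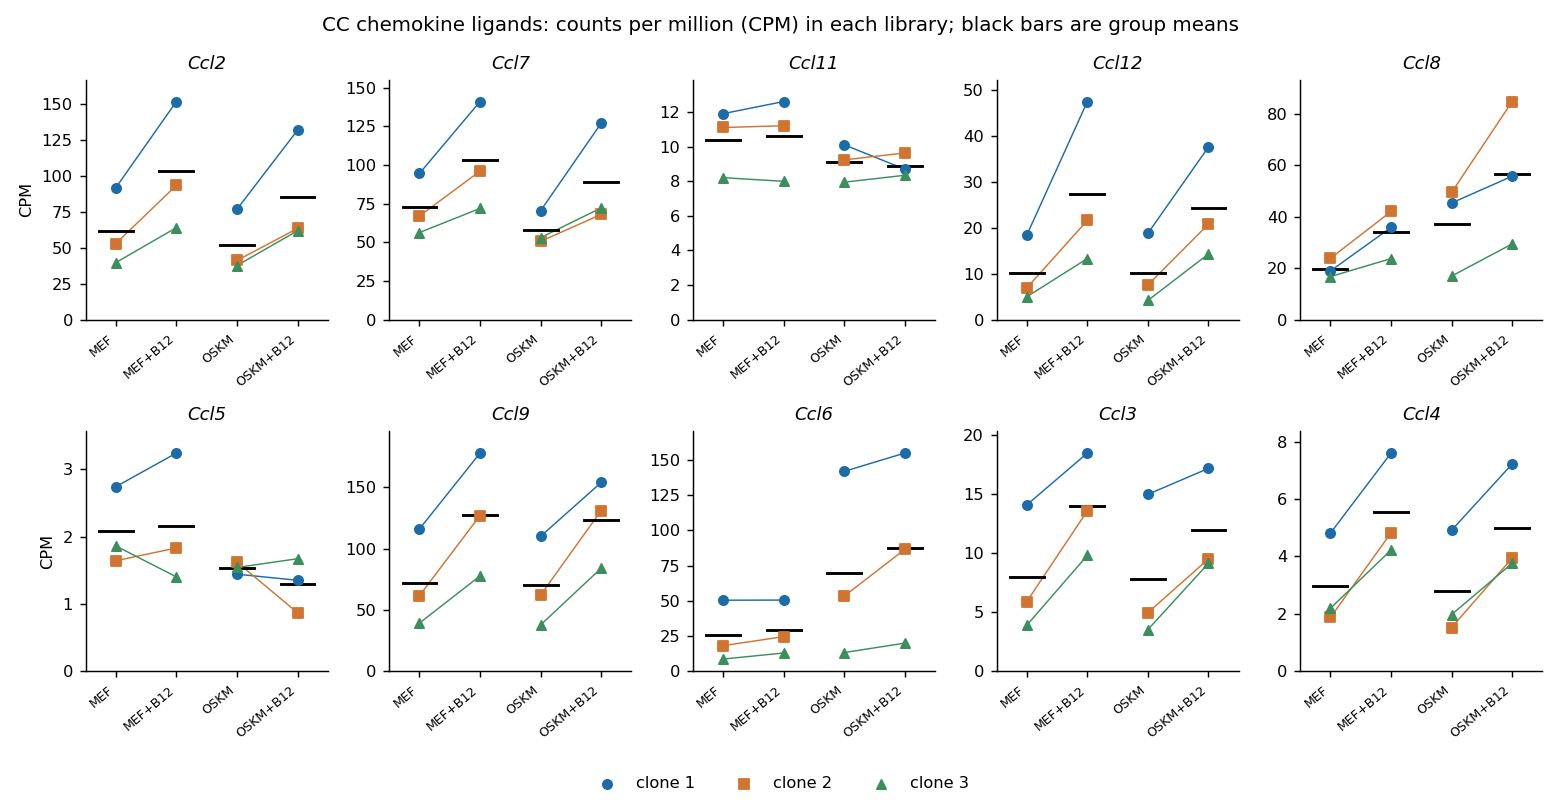
CPM (y axis, linear from 0, scaled per gene) of the 10 CC ligands in the 4 groups (x axis). Each symbol is 1 library, coloured by clone, lines join the libraries of a clone without and with B12, and black bars are group means (n = 3). Ccl12 is higher with B12 along every line, Ccl11 stays between 7.94 and 12.6 CPM, and clone 1 lies highest for most genes.

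To rank the ligands by RNA, levels were compared between genes per length, as CPM per kilobase of exon. Protein was not measured in these libraries. Ccl7 had the highest level, 101 ± 35.9 CPM per kilobase (mean ± SD over 12 libraries), followed by Ccl8 with 72.1 ± 39.3 and Ccl2 with 66.5 ± 31.9. Ccl12, Ccl9 and Ccl6 formed the next tier at 33.5 ± 24.5, 32.2 ± 14.7 and 29.5 ± 28. Neighbours within these tiers changed places between libraries, as Ccl8 exceeded Ccl2 in 5 of 12 libraries and Ccl12 exceeded Ccl9 in 2 of 12. By contrast, Ccl2 exceeded Ccl12 in 12 of 12 libraries. Ccl3 (13.6 ± 6.79), Ccl11 (9.01 ± 1.51) and Ccl4 (6.17 ± 3.02) were lower on the same scale, and Ccl5 was the lowest at 1.84 ± 0.661.

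Together the 10 ligands accounted for 423, 251 and 182 CPM in MEF clones 1, 2 and 3, and for 647, 436 and 287 CPM in MEF+B12. In OSKM the sum was 495, 281 and 178 CPM, and in OSKM+B12 it was 696, 478 and 305 CPM. The sum was thus higher with B12 in each clone and state, while clone 1 exceeded clone 3 in each group. Ccl2, Ccl7 and Ccl9 made up 52.0% to 74.5% of this total. The share of Ccl6 was the most variable, from 4.49% to 28.7%, and that of Ccl12 ranged from 2.35% to 7.35%.

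Differences between clones were large beside those between groups. Clone 1 had the highest mean level of 9 of the 10 members, the exception being Ccl8, and was highest in all 4 groups for 7 members. The mean of clone 1 over that of clone 3 was 7.3-fold for Ccl6, 3.33-fold for Ccl12 and 1.34-fold for Ccl11. When the 4 groups were ordered by mean CPM, the gap between neighbouring groups exceeded the larger of their SDs in 4 of 30 cases, those of Ccl12, Ccl8, Ccl9 and Ccl4. Comparisons below were therefore made within clones. A later year stands in the titles of clone 1 than in those of the other clones, and clone and year cannot be told apart.

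With B12, the ligands of CCR2 were higher in every clone. Ccl12, which encodes a monocyte attractant found in mice, was at 18.4, 6.91 and 4.97 CPM in MEF clones 1, 2 and 3 and at 47.5, 21.6 and 13.3 CPM in MEF+B12. In OSKM it was at 18.8, 7.57 and 4.18 CPM, and in OSKM+B12 at 37.6, 20.8 and 14.3 CPM. Each B12 library was above the untreated library of its clone, although the groups overlapped because clone 1 without B12 exceeded clone 3 with it. The B12 difference, averaged over states on the log2 scale, was 1.43 ± 0.09 (SE), or 2.69-fold, with 1.47 ± 0.12 in MEF and 1.39 ± 0.12 in OSKM.

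Ccl2, the main monocyte attractant of fibroblasts, was at 91.9, 53.0 and 39.7 CPM in MEF and at 152, 93.6 and 64.1 CPM in MEF+B12. Its levels were 76.9, 41.2 and 37.7 CPM in OSKM and 132, 63.5 and 61.9 CPM in OSKM+B12. The response was nearly even across the 6 pairs of libraries, with log2 differences from 0.62 to 0.82. Ccl7, a further CCR2 ligand next to Ccl2 on the chromosome, had an average log2 difference of 0.53 ± 0.07, and its 6 pairs ranged from 0.35 to 0.86. Ccl2 had 0.73 ± 0.06 on the same scale, so the third ligand of this receptor, Ccl12, stood above both, with each of its 6 pairs at 1.00 or more.

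The other members of that cluster differed from one another. Ccl8, which in the mouse encodes a ligand of CCR8, was at 18.9, 23.8 and 16.7 CPM in MEF and at 35.8, 42.0 and 23.7 CPM in MEF+B12. It was at 45.3, 49.4 and 16.9 CPM in OSKM and at 55.7, 84.7 and 29.4 CPM in OSKM+B12, for an average B12 difference of 0.68 ± 0.14 on the log2 scale. Ccl11 showed a difference of 0.00 ± 0.07 with a 95% interval from -0.16 to 0.15. Its 12 libraries lay between 7.94 and 12.6 CPM, and 4 of its 6 pairs were higher with B12.

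In the other cluster, Ccl9 had the highest CPM before scaling for length. It was at 116, 61.6 and 39.2 CPM in MEF and at 178, 127 and 77.7 CPM in MEF+B12. In OSKM and OSKM+B12 it was at 110, 62.1 and 37.7 CPM and at 154, 131 and 84.0 CPM. All 6 pairs were higher with B12, with an average log2 difference of 0.89 ± 0.08. Ccl3 and Ccl4, encoding macrophage inflammatory proteins, differed by 0.87 ± 0.15 and 0.94 ± 0.12. For Ccl3 the pairs of clone 1 were the smallest, at 0.39 in MEF and 0.20 in OSKM, against 0.94 to 1.37 in clones 2 and 3. Ccl4 followed that order as well, with 0.66 and 0.55 in clone 1 and 0.92 to 1.36 in the others.

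Ccl6 and Ccl5 had the smallest differences of this cluster. Ccl6 differed by 0.41 ± 0.16 on the log2 scale. It was higher with B12 in 6 of 6 pairs, but in MEF clone 1 by no more than 50.4 against 50.5 CPM. Ccl5, a T cell and monocyte attractant, differed by -0.11 ± 0.19 and was higher in 3 of 6 pairs. Its levels were between 0.868 and 3.24 CPM in all libraries.

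Counted across the family, 8 of 10 members were higher with B12 in 6 of 6 pairs, against 8% of all genes tested. By edgeR at an adjusted p of 0.05, 7 of 10 were called higher in the average over states, against 3.46% of all genes, the exceptions being Ccl5, Ccl6 and Ccl11. Within OSKM 5 of 10 were called higher against 1.05% of all genes, and within MEF 4 of 10 against 1.37%. The median log2 difference was 0.70 over the members and -0.01 over all genes. Since these genes were selected with the B12 difference of Ccl12 in view, these counts describe the selection and nothing is read from them. Without clone 2, the count in the average over states was 2, and it was 0 within each state, and without clone 3 it was 2 within OSKM. The shares of all genes called in these smaller fits are not given, so whether the loss is particular to the members is not shown.

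**Figure D2:**
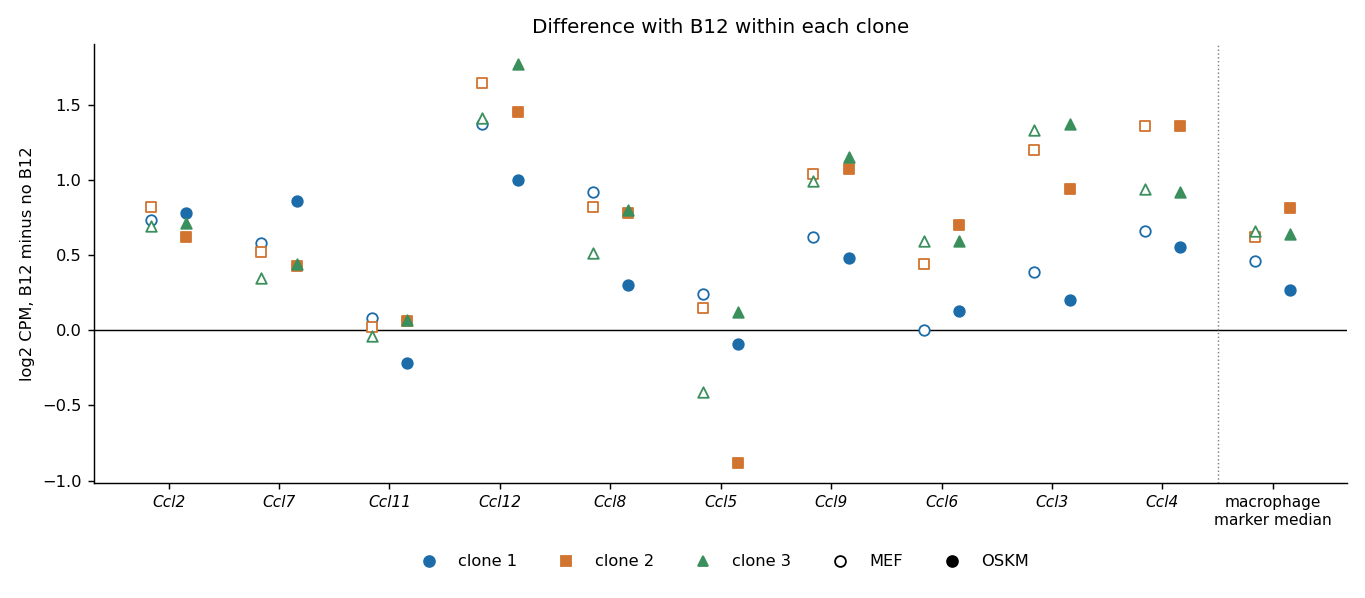
Difference in log2 CPM, B12 minus no B12, within each clone (y axis) for the 10 CC ligands and for the median of the 14 macrophage markers tested (x axis). Open symbols are MEF, filled symbols OSKM, shapes and colours are clones. The 6 points of Ccl12 lie from 1.00 to 1.77, whereas those of the macrophage median lie from 0.27 to 0.81 and those of Ccl11 lie near 0.

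Macrophage markers moved with B12 in the same libraries. Of 15 markers 14 were tested, and 12 of them rose in the average over states, among them Mrc1, the mannose receptor, by 0.86 ± 0.08 on the log2 scale (edgeR adjusted p = 0.000206) and Csf1r, the receptor of macrophage colony stimulating factor, by 0.71 ± 0.08 (adjusted p = 0.000773). Cx3cr1 (-0.45 ± 0.20, adjusted p = 0.296) and Aif1 (0.42 ± 0.13, adjusted p = 0.127) did not pass, and Cd163 had at most 11 counts. The summed level ranged from 1263 to 2417 CPM in MEF and 1914 to 3214 CPM in MEF+B12, and from 1280 to 2210 CPM in OSKM and 1964 to 2567 CPM in OSKM+B12. The part of these cells in the ligands' differences was not tested. Set against the median marker of the same pair, Ccl12 was higher in 6 of 6 pairs by 0.64 to 1.13 on the log2 scale, and Ccl9 and Ccl4 were higher in 6 of 6 by at least 0.17 and 0.20. Ccl2 was above the median marker in 5 of 6 pairs, Ccl3 and Ccl8 in 4 of 6 and Ccl7 in 2 of 6, while Ccl5, Ccl6 and Ccl11 were below it in every pair. Since Ccl12 entered the choice of genes by its B12 difference, its place above the median is a description. Single markers also lay above the median in 6 of 6 pairs, among them Mrc1 and Csf1r. Their B12 differences, from which the median was not subtracted, were 0.52 to 1.20 for Mrc1 and 0.37 to 0.89 for Csf1r. On that scale Ccl12 was at 1.00 to 1.77 and the median marker at 0.27 to 0.81. Other markers lay below the median, as Cx3cr1 did in 6 of 6 pairs.

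Induction of OSKM was a comparison that did not enter the choice of these genes, and it separated them differently. Averaged over B12, 2 of 10 members rose against 4.46% of all genes, and 1 fell against 5.26%. Ccl6 increased most, with a log2 difference of 1.33 ± 0.17 (SE), or 2.51-fold (edgeR adjusted p = 0.00559). It was at 50.4, 18.1 and 8.56 CPM in MEF clones 1, 2 and 3 and at 142, 53.3 and 13.2 CPM in OSKM. With B12 it went from 50.5, 24.5 and 12.9 CPM to 155, 86.6 and 19.9 CPM. Clones 1 and 2 had 2.82-fold to 3.53-fold more Ccl6 after induction, and clone 3 had 1.54-fold more both without and with B12.

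Ccl8 rose by 0.73 ± 0.14 on the log2 scale (edgeR adjusted p = 0.0206) and was higher in 6 of 6 pairs, although clone 3 without B12 showed a ratio of no more than 1.01. Ccl2 fell by 0.25 (SE 0.06, edgeR adjusted p = 0.0298) and was lower in 6 of 6 pairs, at 0.679 to 0.965 of the uninduced level. Ccl7 and Ccl11 did not pass, at -0.26 ± 0.07 (adjusted p = 0.0537) and -0.21 ± 0.07 (adjusted p = 0.0861), nor did Ccl5 at -0.55 ± 0.19 (adjusted p = 0.0967). The remaining 4 members, Ccl12, Ccl9, Ccl3 and Ccl4, had differences from -0.16 to -0.02. Of these Ccl12 had a 95% interval of -0.24 to 0.13, and Ccl9 one of -0.21 to 0.16. The median difference was -0.15 over the members and 0.00 over all genes.

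**Figure D3:**
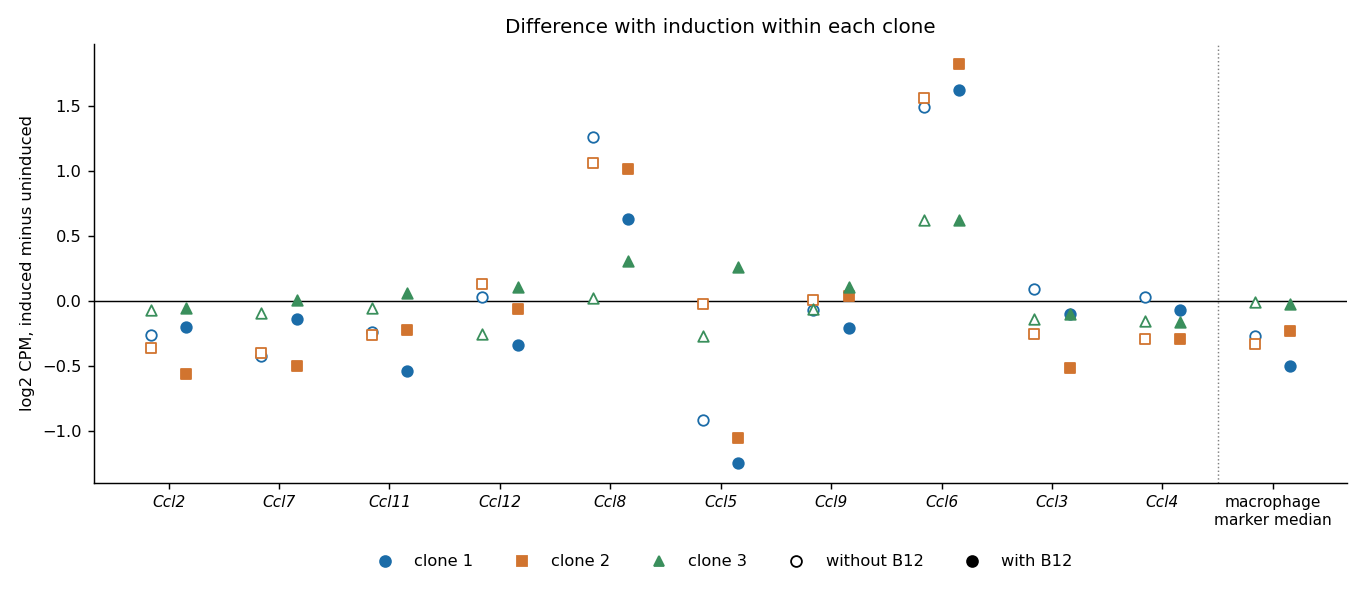
Difference in log2 CPM, induced minus uninduced, within each clone (y axis) for the 10 CC ligands and for the median of the 14 macrophage markers tested (x axis). Open symbols are without B12, filled symbols with B12, shapes and colours are clones. Ccl6 and Ccl8 lie above 0 in all 6 pairs and Ccl2 below it, and the points of clone 3 are the lowest for Ccl6 and Ccl8.

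Taken separately, induction without and with B12 gave 0 of 10 members past the threshold in edgeR, against 0.0730% and 0.104% of all genes. At an unadjusted p under 0.05, 4 members passed without B12 and 5 with it, against 19.0% and 14.9% of all genes. DESeq2 called 1 member, Ccl6, in each, with log2 differences of 1.25 (adjusted p = 0.00798) and 1.34 (adjusted p = 0.00359). The shares of all genes called by DESeq2 are not given, and those of edgeR do not serve for its count. The 3 calls of the averaged comparison were lost without clone 1 or without clone 2, where the Ccl6 difference was 1.20 (adjusted p = 0.177) and 1.13 (adjusted p = 0.426). Without clone 2 the Ccl2 difference was -0.14 (adjusted p = 0.426), and without clone 1 it was -0.26 (adjusted p = 0.262). Leaving out clone 1 keeps the libraries with the same year in their titles. Without clone 3 the calls numbered 6, and the Ccl6 difference was 1.63 (adjusted p = 8.83e-05). The shares of all genes called in the fits that leave out a clone are not given. Counts of members from these fits are therefore not read as a result about the members. Without the OSKM library of clone 1 alone, Ccl2 did not pass (-0.24, adjusted p = 0.0587).

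Markers of other cells also moved with induction. Of 5 endothelial genes 3 were tested, of which Tek and Cdh5 rose by 1.26 ± 0.21 (edgeR adjusted p = 0.0171) and 1.22 ± 0.24 (adjusted p = 0.0207), and clone 3 again had the smallest differences, 0.26 to 0.38 for Tek and 0.08 to 0.43 for Cdh5. Kdr, the other gene tested, differed by 0.01 ± 0.10 (adjusted p = 0.965), while Pecam1 had at most 19 counts and Emcn at most 3. Of the 14 macrophage markers tested 3 fell, Csf1r, Adgre1 and Aif1, and 1 rose, Itgam, with a median of -0.22 over the list. In each pair that median was between -0.50 and -0.01. The count of Itgam is uncertain, since 68.1% of its 31-base words also occurred in transcripts of another gene. Of the 11 fibroblast markers 4 fell, Col1a1, Col1a2, Pdgfra and Pdgfrb, among them Col1a1 by 0.35 (SE 0.08, edgeR adjusted p = 0.0277), and 0 rose. The other 7 did not pass, with differences from -0.21 for Postn to 0.09 for Dcn. The part of any of these cells in the Ccl6, Ccl8 and Ccl2 differences was not tested.

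Whether clones responded differently to induction was tested by an F test of clone by state. It called 0 of 10 members against 2.15% of all genes, and the smallest adjusted p-values were 0.0656 for Ccl6, 0.066 for Ccl8 and 0.0674 for Ccl2. At an unadjusted p under 0.05 there were 6 members, against 14.8% of all genes. In the fit without clone 1, Ccl6 (adjusted p = 0.000831), Ccl8 (adjusted p = 0.00454), Ccl2 and Ccl7 passed, and the same 4 members passed when the OSKM library of clone 1 alone was left out. The shares of all genes called in those fits are not given, so nothing is read from that count.

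Next, the B12 difference in OSKM was compared with that in MEF. This interaction called 0 of 10 members in edgeR, against 0.00% of all genes, and DESeq2 called 0 as well. An unadjusted p under 0.05 was reached by 0 of 10 members and by 1.42% of all genes. For Ccl12 the difference of differences was -0.08 ± 0.17, with a 95% interval from -0.45 to 0.29 on the log2 scale. The interval was narrowest for Ccl2, from -0.30 to 0.22, and widest for Ccl5, from -1.14 to 0.56. A changed B12 difference of these sizes could therefore not be told from none. The B12 difference was also tested between clones, with 0 of 10 members called against 0.00% of all genes, and 3 members, Ccl3, Ccl9 and Ccl4, had an unadjusted p under 0.05 against 1.18% of all genes.

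Across the 12 libraries, with the mean of each clone removed from log2 CPM, 6 members moved closely together. Ccl12 and Ccl9, from different clusters, had a Pearson r of 0.99, and the pairs among Ccl2, Ccl7, Ccl12, Ccl9, Ccl3 and Ccl4 ranged from 0.72 to 0.99. Ccl6 and Ccl8 had r = 0.88 with each other, and Ccl6 had 0.26 with Ccl12. Ccl5 and Ccl11 had r = 0.80 with each other and -0.83 and -0.79 with Ccl6. These values describe libraries that share treatments, clones and depth, so they carry no test.

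**Figure D4:**
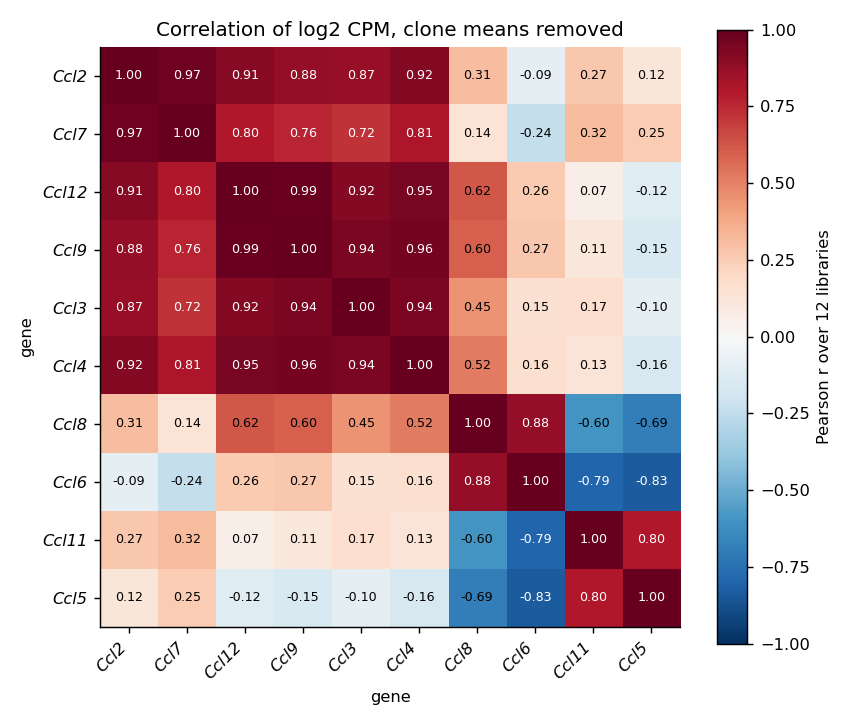
Pearson r between CC ligands (both axes) over 12 libraries, from log2 CPM with the mean of each clone removed, coloured from -1 (blue) to 1 (red). Ccl2, Ccl7, Ccl12, Ccl9, Ccl3 and Ccl4 form a block of 0.72 to 0.99, and Ccl8 with Ccl6 and Ccl11 with Ccl5 form pairs of 0.88 and 0.80.

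Among 11940 genes at a mean log2 CPM of at least 1, those most like Ccl12 on this measure were Lrrc25 (r = 0.992), Ccl9 (0.988), Slc16a6 (0.987), Arhgap4 (0.986) and Ms4a6c (0.986). Ccl9 was most like Ms4a6d (0.993), Fcgr4 (0.993) and Arpc5 (0.990). For Ccl2 the closest were Tlr1 (0.988), Sdf2l1 (0.980) and Il21r (0.979), whereas its neighbour Ccl7 was nearest to Txnrd1 (0.979), Sephs2 (0.970) and Snx8 (0.967). Ccl6 was closest to Ceacam1 (0.994), Cacybp (0.978) and Cd5l (0.977), and Ccl8 to Frmd4b (0.978), Cd300ld (0.974) and Zbed4 (0.972). Clec4n (0.986), Fcgr3 (0.982) and Tfec (0.974) headed the list of Ccl3, Tnf (0.985), Stard8 (0.983) and Cd300c2 (0.983) that of Ccl4, and Colec12 (0.969), Scube2 (0.968) and Shisa5 (0.962) that of Ccl11. Ccl5, the lowest member, had weaker likenesses, of 0.943 to Lpin3, 0.938 to Exog and 0.936 to P2rx5.

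Receptors of these ligands were then examined. Ccr4, Ccr6 and Ccr8 were at 0 counts in all libraries, and Ccr2, the receptor of CCL2, CCL7 and CCL12, had 1 to 11 counts per library and did not pass the filter on low counts. Ccr1, a receptor of CCL3, CCL6 and CCL9, was at 1.78, 0.996 and 0.662 CPM in MEF clones 1, 2 and 3 and at 3.27, 2.77 and 2.15 CPM in MEF+B12. In OSKM it was at 2.88, 0.83 and 0.59 CPM, and in OSKM+B12 at 3.62, 1.78 and 2.07 CPM. It was thus higher with B12 in each clone and state, and the MEF and MEF+B12 libraries did not overlap. Averaged over states it rose by 1.14 ± 0.21 on the log2 scale (edgeR adjusted p = 0.00936). Ccr3, the eotaxin receptor, was likewise higher in each clone and state, with log2 differences of 0.79 to 2.36 within pairs, and rose by 1.61 ± 0.24 on average (adjusted p = 0.00321). Both genes rest on few reads, 42 to 246 counts per library for Ccr1 and 15 to 95 for Ccr3. Without clone 2, Ccr1 and Ccr3 did not pass (adjusted p = 0.209 and 0.0846), nor did they without clone 3 (0.12 and 0.0568). Ccr7 did not pass with B12 (-0.22 ± 0.22, adjusted p = 0.688). With induction neither edgeR nor DESeq2 called Ccr1, Ccr3 or Ccr7, and 0 of them had an unadjusted p under 0.05.

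**Figure D5:**
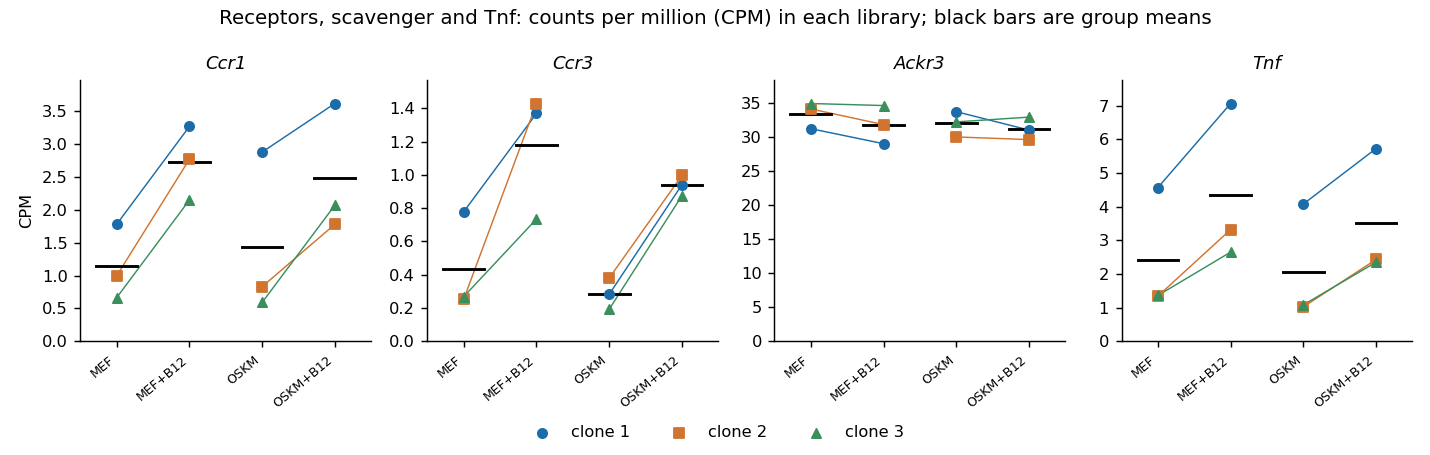
CPM (y axis, linear from 0, scaled per gene) of Ccr1, Ccr3, Ackr3 and Tnf in the 4 groups (x axis). Each symbol is 1 library, coloured by clone, lines join the libraries of a clone without and with B12, and black bars are group means (n = 3). Ccr1, Ccr3 and Tnf are higher with B12 along every line, and the Ackr3 means lie between 31.2 and 33.4 CPM.

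Atypical receptors, which bind chemokines without coupling to G proteins, gave 0 calls among 4 tested of 5 in every comparison in edgeR, and 0 in DESeq2 where it was run. At an unadjusted p under 0.05, Ackr1 passed in the average of induction, and Ackr1 and Ackr3 in the test of induction by clone. The most abundant was Ackr3, which binds CXC rather than CC ligands, with a B12 difference of -0.05 ± 0.05. Ackr2, the scavenger of inflammatory CC ligands, had at most 7 counts. Of 11 further CC ligand genes 4 were tested, and 0 were called in any comparison by edgeR or, where run, DESeq2, nor did 1 reach an unadjusted p under 0.05. The most abundant of them, Ccl27a, whose count is uncertain because it shares sequence with other genes, differed by -0.11 ± 0.09 with B12 and 0.08 ± 0.09 with induction.

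Genes that act upstream of CC ligands were surveyed in a list of 12 NF-κB components and inducing cytokines, of which 10 were tested. With B12 1 rose in edgeR, Tnf, a cytokine that induces these ligands, by 0.91 ± 0.12 in the average over states (edgeR adjusted p = 0.00135), 0.94 ± 0.17 in MEF and 0.89 ± 0.17 in OSKM, against a list median of 0.05. It was at 4.57, 1.34 and 1.36 CPM in MEF and 7.07, 3.32 and 2.65 CPM in MEF+B12. The OSKM levels were 4.08, 1.02 and 1.08 CPM and the OSKM+B12 levels 5.73, 2.43 and 2.35 CPM, so Tnf was higher in 6 of 6 pairs. Without clone 2 the averaged difference was 0.77 (adjusted p = 0.0769). DESeq2 called Tnf and also Tnfaip3, an inhibitor of NF-κB signalling, in that comparison, where edgeR gave Tnfaip3 a difference of 0.23 ± 0.06 (adjusted p = 0.0556). At an unadjusted p under 0.05 there were 4 genes of the list, Tnf, Tnfaip3, Nfkbia and Nfkb2. With induction Nfkb2, an NF-κB subunit, fell by 0.19 (SE 0.04, adjusted p = 0.0206), as did Nfkbiz, a nuclear regulator of that pathway, by 0.28 (SE 0.06, adjusted p = 0.0213).

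Finally, 7 genes of chemokine mRNA decay and protein processing were all tested. Mmp12, a metalloproteinase that cleaves chemokines, fell with B12 by 0.34 (SE 0.07, edgeR adjusted p = 0.0286) and with induction by 0.43 (SE 0.07, adjusted p = 0.0181). Mmp2 fell with induction by 0.19 (SE 0.05, adjusted p = 0.0383). Dpp4, a peptidase that trims chemokine amino termini, responded to induction differently between clones (adjusted p = 0.00927). The decay factors Zfp36, Zfp36l1 and Zc3h12a and the stabilising factor Elavl1 were called in 0 comparisons by edgeR, although DESeq2 called Zfp36l1 in the average B12 comparison, and Zfp36 and Zfp36l1 reached an unadjusted p under 0.05 there.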

How the data were processed

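RNA was sequenced from 12 libraries, 3 clones in each of 4 groups. The authors aligned poly(A)-selected, strand-specific read pairs to mm10 (GRCm38) with STAR (version 2.5.2 per the submitters' processing notes), counted pairs per gene with featureCounts and added up technical runs. The deposited values are these raw counts. Symbols came from GENCODE M21 for 55480 of 55573 rows. CPM were computed here with TMM-scaled totals (factors 0.934 to 1.06), and log2 CPM took a prior count of 2. Genes were tested with the edgeR (version 4.0.16) quasi-likelihood F test in R 4.3.3, with filterByExpr by group (19174 genes kept), Benjamini-Hochberg adjustment over these genes and a threshold of 0.05. A further fit of clone by state and clone by B12 tested differences between clones. Clone entered as a replicate block, since 1 embryo supplied all 4 libraries of a clone. These libraries deviated together from their group means (r of 0.27 to 0.687 across genes, over 18 pairs, against at most 0.17 between clones). DESeq2 (version 1.42.0) was an alternative. The fits were tested on simulated data.

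The members and lists were chosen with earlier results of these data known. Named genes are all 10 members, up to 5 called genes per list and comparison by smallest p, the most abundant receptor and further ligand, and the genes of most similar pattern (3 per member, 5 for Ccl12). The receptors, ligands and markers named for low or 0 counts, or as lacking a call, were named after their values were seen. An item that this rule covers is not reported here. The labels give doxycycline at 1 µg/ml, while the methods of the study state another unit.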

Additional observations from a re-analysis of the deposited data

How the results depend on the processing

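Under the alternatives the B12 differences of single members moved by at most the spread between clones in 320 of 320 cases. B12 pairs of Ccl5 ranged from -0.88 to 0.24 and those of Ccl11 from -0.22 to 0.08. A movement within that spread can turn their sign, so whether their signs held is not shown. The other 8 members were higher with B12 in 6 of 6 pairs. The counts of members called were less stable. The shares of all genes called under these settings, or with libraries left out, are not given. Whether the shifts are particular to the members is therefore not shown. Without the replicate block, so that libraries of one clone were not paired, 0 members were called in the average of induction (3 with the block), and 0 in the B12 comparisons, averaged (7 with it), in OSKM (5) and in MEF (4). DESeq2 called 1 member in induction without B12, 1 with B12 and 5 on average. With no filter on low counts these were 2, 2 and 5, B12 in MEF gave 7 and the test of induction by clone gave 5. Scaling by library totals gave 2 in that last test. Fits to only the libraries compared called 3 in OSKM and 7 in MEF for B12. DESeq2 size factors and a minimum of 10 counts moved no count by more than 1.5 times. The DESeq2 test was not run by clone. The cause of these shifts was not tested.

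Leaving out 1 clone, or the OSKM library of clone 1, gave 0 to 2 members for induction without B12, 0 to 4 with B12 and 0 to 6 on average. For B12 the ranges were 2 to 7 averaged, 0 to 5 in OSKM and 0 to 6 in MEF, the lowest each time without clone 2. Induction by clone ranged from 0 to 4, and interaction and B12 by clone stayed at 0.

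In the induction and interaction comparisons, signs turned for small differences that had passed no test. With library totals, Ccl9 was at 0.01, 0.03 and 0.02 for induction without B12, with B12 and on average, and Ccl12 at 0.04 without B12. With no replicate block, Ccl12 was at 0.01 for induction without B12 and Ccl9 at -0.01 for interaction. When 1 clone or the OSKM library of clone 1 was left out, induction without B12 ranged from -0.15 to 0.07 for Ccl12 and -0.42 to 0.01 for Ccl3. With B12 it ranged from -0.20 to 0.02 for Ccl12 and -0.08 to 0.07 for Ccl9, whose average ranged from -0.08 to 0.03. For interaction the ranges were -0.10 to 0.03 (Ccl2), -0.01 to 0.16 (Ccl7), -0.13 to 0.07 (Ccl11), -0.27 to 0.07 (Ccl12), -0.33 to 0.12 (Ccl8), -0.71 to 0.03 (Ccl5), -0.04 to 0.14 (Ccl9), -0.01 to 0.35 (Ccl6), -0.29 to 0.18 (Ccl3) and -0.11 to 0.15 (Ccl4).

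With the longest transcript as length, Ccl5 was at 2.64 CPM per kilobase in place of 1.84, and Ccl6 moved from the sixth to the fourth place. With clone means kept in, 1 of the 5 genes most like Ccl12 was retained. Among the members, counting error was largest for Ccl5, which had the fewest counts.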
